A study of Gallus gallus with 30 samples.

Results

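The 100 nuclear-encoded transcripts of highest mean abundance in the chicken otocyst, the vesicle that gives rise to the inner ear, were described over 30 libraries. They were chosen from 28756 listed transcripts as those with the highest mean TPM (transcript abundance scaled for transcript length and library size) over all 30 libraries, after the 13 mitochondrially encoded mRNAs had been left out, and were ranked from 1 to 100 by that mean. Their levels and their share of the library were therefore fixed by the choice and are given without a test. The otocysts came from 15 White Leghorn embryos, each giving a right and a left otocyst sequenced as a library of its own. Of these embryos, 9 had been electroporated in ovo at E2, in the placode of the right ear, with a plasmid for NICD1 (the intracellular, active part of the NOTCH1 receptor) with the red fluorescent protein mRFP1, and collected 6 h or 24 h later, or with a control plasmid for mRFP1 alone, collected after 24 h. The left otocysts of these embryos were untransfected, and all otocysts were cleaned of mesenchyme. Transfection is mosaic, and the study sequenced strongly transfected ears. In the other 6 embryos both otocysts were explanted at E2.5 and cultured free floating for 6 h or 24 h, the right one in 10 µM of the γ-secretase inhibitor LY411575 and the left one in DMSO. Each of the 10 groups held 3 libraries. The labels give E2.5 for the 6 h electroporations and E3 for the 24 h ones.

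The most abundant mRNAs of a growing embryonic tissue largely encode the machinery that every cell needs. Ribosomal proteins form the large (RPL) and small (RPS) subunits of the ribosome and are made in equal numbers from many genes with short mRNAs. Chaperones fold new proteins, glycolytic enzymes supply energy, and cytoskeletal proteins serve division and shape.

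The deposited files list transcripts by Ensembl identifier without gene names. The lists that the study published hold 894 identifiers, 809 of them with a symbol, and 10 of the 100 transcripts could be named through them. These were STMN1 (stathmin, a protein that destabilises microtubules) at rank 4, the large-subunit ribosomal proteins RPL14 (rank 29), RPL34 (64), RPL23A (65) and RPL31 (75), the small-subunit ribosomal proteins RPS25 (44), RPS23 (66) and RPS20 (87), HSPA8 (rank 62, the constitutive cytosolic chaperone of the Hsp70 family) and PGAM1 (rank 71, phosphoglycerate mutase of glycolysis). The study had drawn those lists from these same libraries and from Wnt experiments on other samples. All 10 named transcripts were listed for these libraries, 8 of them for the 24 h inhibitor cultures. The names are thus a selection, and the behaviour of the named transcripts is not independent of it. The other 90 transcripts are referred to by rank and length.

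Total estimated counts ranged from 8.75e+06 to 1.82e+07 per library. All 100 transcripts were above 0 in every library, the lowest count being 7.91, and all 100 passed the filter on low counts. The 24 h cultures stood apart: the mitochondrial mRNAs made up 1.82% to 3.58% of TPM in LY411575 and 3.97% to 4.41% in DMSO, and the mean fragment length reached 232 and 243 bases in the LY411575 otocysts of embryos 32 and 34, against 201 and 199 bases in their DMSO partners, while embryo 33 had 205 bases in LY411575 and 219 in DMSO. The summed level of the 7 otic epithelium markers was 237 to 432 TPM in the 24 h cultures and 433 to 1131 TPM elsewhere. DLX5, SOX10 and TBX2 were lower in every 24 h culture than in any other library, while the ranges of GJB6, LMX1A, SOHO-1 and TFAP2C overlapped. The summed level of the 7 mesenchyme markers was 182 to 258 TPM in the 24 h cultures and 266 to 608 TPM elsewhere, but the 7 differed. COL1A2 was lower in the 24 h cultures (11.6 to 34.9 TPM, against 51.9 to 256 TPM elsewhere). SCX was higher there (16.2 to 54.5 TPM, against 1.41 to 9.88 TPM elsewhere), and the ranges of DCN, ENG, LUM, NT5E and THY1 overlapped. The summed level of the 4 neuroblast markers found was 1069 to 1498 TPM in LY411575 for 24 h, 895 to 1112 TPM in DMSO for 24 h and 644 to 1088 TPM elsewhere. These 4 went in different directions: NHLH1 was at 400.03 to 547 TPM in LY411575 and 302 to 499.6 TPM in DMSO for 24 h, against 8.07 to 64.5 TPM elsewhere, and EBF2 and EBF3 were higher in the 24 h cultures too, while PCP4 was at 121 to 182 TPM in LY411575 and 211 to 264 TPM in DMSO for 24 h, against 476 to 983 TPM elsewhere. The muscle marker ACTA1 was at 87.2 to 97.99 TPM in LY411575 for 24 h, 71.8 to 88.6 TPM in DMSO for 24 h and 39.2 to 78.9 TPM elsewhere. The part of these differences in the results below was not tested. In bulk RNA, fewer cells of a type and less RNA per cell cannot be told apart.

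The 100 transcripts held 21.1% ± 1.48 (SD, n = 30) of all TPM, between 18.6% and 24.1% of a library. In DMSO cultures of 24 h they held 21.8% ± 0.37, against 19.1% ± 0.63 in DMSO cultures of 6 h (SD, n = 3 each). Untransfected otocysts in ovo held 21.4% ± 0.52 at E3 (SD, n = 6) and 20.6% ± 0.70 at E2.5 (SD, n = 3). All 6 cultures of 6 h lay between 18.6% and 19.8%, and the 24 other libraries between 19.5% and 24.1%. As a share of estimated counts the 100 transcripts made up 10.9% (8.67% to 13.6%), because TPM divides by length and counts do not.

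The sum was steadier than its make-up. The first 10 ranks together held 8.75% to 10.7% of TPM in LY411575 and 6.71% to 9.19% in DMSO after 24 h of culture, and 4.35% to 6.48% in the 24 other libraries. Rank 3 alone held 2.37% to 4.30% in LY411575 and 1.22% to 2.86% in DMSO for 24 h, and 0.12% to 0.30% in the 24 others. It owed its place among the first 10 to the 24 h cultures, so this contrast is not independent of the ranking. Of the 100 transcripts, 67 to 73 were in a library's own top 100 in LY411575 for 24 h, 75 to 84 in DMSO for 24 h, and 86 to 94 elsewhere. Only 41 were in the own top 100 of all 30 libraries, while 98 were in the own top 1000 of all 30. The rank 3 transcript was the most abundant one in all 6 cultures of 24 h, the rank 5 transcript in all 6 cultures of 6 h, and rank 1 or rank 2 in all 18 libraries in ovo.

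**Figure D1:**
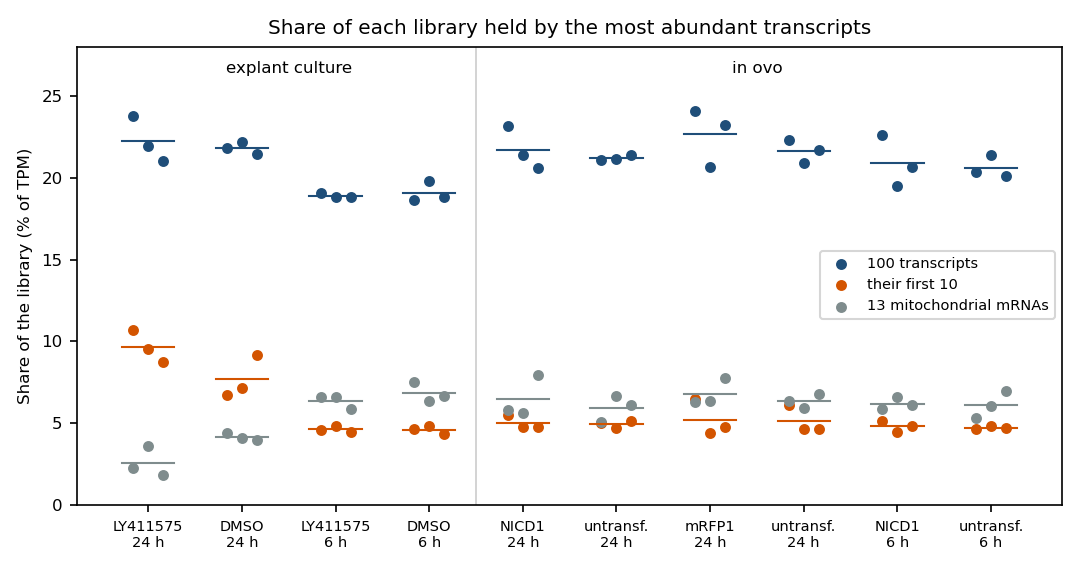
Share of each library's TPM (vertical axis, percent) held by the 100 transcripts, by their first 10 ranks and by the 13 mitochondrial mRNAs, for the 10 groups; points are single libraries (n = 3 per group) and lines are group means. The 100 transcripts stay between 18.6% and 24.1%, while their first 10 ranks reach 6.71% to 10.7% in the 24 h cultures. These 10 include the rank 3 transcript, which owes its place among them to its level in those cultures.

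Mean levels fell steeply at the top of the list. Rank 1 averaged 9608 TPM and rank 2 averaged 8533 TPM, 5 transcripts were above 5000 TPM and 29 above 2000 TPM. The boundary was not a gap: rank 99 (765 bases) had 1134 TPM and rank 100 (1832 bases) 1127 TPM just inside it, and the first transcript outside it (450 bases) had 1122 TPM and the second (1788 bases) 1116 TPM.

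The 100 transcripts were short, with a median of 709 bases (114 to 3054), against 1520 bases for the next 900 ranks and 2097 bases for all 28743 nuclear transcripts. Of them 50% were under 700 bases, against 13.3% of the next 900 ranks and 6.15% of all nuclear transcripts. Length enters the choice itself through TPM, which divides the count by the effective length. When the ranking used CPM instead (counts scaled for library size alone), 42 of the 100 transcripts were chosen again, and the new list of 100 had a median length of 1935.5 bases and a share of 15.3% of TPM. The 4 members under 300 bases show how far this can go. The rank 5 transcript (126 bases) averaged 1785 counts but had an effective length of only 35.1 to 40.5 bases, and the rank 17 transcript (114 bases) averaged 714 counts.

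Reads were shared with other transcripts for many of them. For 45 of the 100 the estimated count was whole in all 30 libraries, 55 had a fractional count in at least 1 library and 12 in all 30. RPL14 and RPS25 had fractional counts in all 30 libraries, so that their levels depend on how kallisto divided the reads, while RPL23A, RPL34 and RPS20 had whole counts in all 30.

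**Figure D2:**
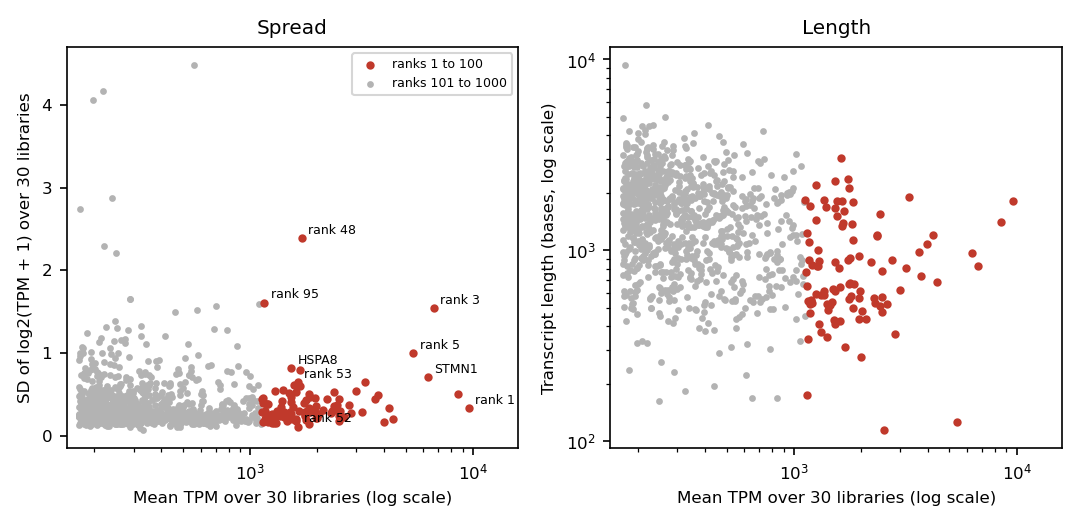
Spread of each transcript (left, SD of log2(TPM + 1) over 30 libraries) and its length (right, bases, log scale) against its mean TPM (log scale) for the 100 transcripts and the next 900 ranks. Most of the 100 have an SD under 0.5, and the labelled transcripts are named in the text; the median length of the 100 is 709 bases, against 1520 bases for the next 900 ranks.

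Over all 30 libraries the 100 transcripts varied about as much as the next 900 ranks did. The SD of log2(TPM + 1) over the 30 libraries had a median of 0.30 for the 100 transcripts (0.11 to 2.39) and of 0.30 for the next 900 ranks, against 0.47 for the 9000 ranks after those. Within the 10 groups the median SD was 0.16 for the 100 transcripts and 0.18 for the next 900 ranks. Of the 100 transcripts, 27 varied by under 2-fold between the highest and the lowest library, against 34.1% of the next 900 ranks. Without the 6 cultures of 24 h the number was 68, against 62.6% of the next 900 ranks. The median SD was then 0.18 for the 100 and 0.22 for the next 900 ranks, so the 100 varied somewhat less there.

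The steadiest member was the rank 52 transcript (1807 bases), which lay between 1416 and 1933 TPM in all 30 libraries, with an SD of 0.11. The rank 8 transcript (1072 bases) had the lowest SD of the first 10 (0.16), between 2953 and 5416 TPM. Rank 6 had an SD of 0.20 but a narrower range, 3530 to 5668 TPM. At the other end, 10 of the 100 varied by over 5-fold and 4 had an SD over 1, the ranks 48, 95, 3 and 5.

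Electroporation in ovo gave no call among the 100 transcripts. In this and the other treatment comparisons each right otocyst was set against the left one of the same embryo, with edgeR's quasi-likelihood test on 21637 transcripts and a threshold of 0.05 on the Benjamini-Hochberg adjusted p. With NICD1 after 6 h 0 of 100 were called (0% of all transcripts), with 8 at an unadjusted p under 0.05. With NICD1 after 24 h 0 were called (0% of all), with 2 at an unadjusted p under 0.05, and with mRFP1 after 24 h 0 were called (0% of all), with 42 at an unadjusted p under 0.05. Counts at an unadjusted p, here and below, were not made over all transcripts, so they are not read as particular to the 100. DESeq2 called 1, 1 and 14 of the 100 in these comparisons, the 14 all higher with mRFP1, and limma-voom 0 in each. Over all 21637 transcripts DESeq2 called 125, 79 and 583, and limma-voom 3, 1 and 0. Leaving out 1 embryo kept 0 calls in each, but the number at an unadjusted p under 0.05 became 31 for NICD1 after 6 h without embryo 13, and for mRFP1 9 without embryo 4, 10 without embryo 24 and 59 without embryo 23. The 95% interval of the fold change lay within a 2-fold change either way for 95 transcripts in the first comparison, 98 in the second and 98 in the third.

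After mRFP1 electroporation 93 of the 100 fold changes were positive, with a median log2 value of 0.29, against −0.04 for all transcripts tested and 0.26 for the next 900 ranks. In TPM the median log2 ratio of the transfected over the untransfected otocyst was smaller, 0.16 in embryo 4, 0.02 in embryo 23 and 0.04 in embryo 24. The summed share of TPM was 24.1%, 20.7% and 23.3% in the mRFP1 otocysts, against 22.3%, 20.9% and 21.7% in the untransfected otocysts of embryos 4, 23 and 24. The shift thus varied with the embryo and with the scale.

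In NICD1 after 6 h, PGAM1 and HSPA8 were the named transcripts that differed in the same direction in all 3 pairs, without passing the test. Such agreement is frequent by chance with 3 pairs. Its share over all transcripts, here and below, was not counted, nor was that of groups without overlap. PGAM1 had 1037, 1135 and 1152 TPM with NICD1 after 6 h, against 1753, 1915 and 1722 TPM in the untransfected otocysts, and the groups did not overlap (log2 fold change −0.65 ± 0.22 (SE), edgeR adjusted p = 1). HSPA8 had 3089, 2615 and 2187 TPM with NICD1, against 2404, 2113 and 1299 TPM untransfected, higher in 3 of 3 pairs with overlapping groups (0.52 ± 0.18, edgeR adjusted p = 1). The study had listed PGAM1 for this comparison.

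After 6 h in LY411575 the 100 transcripts were close to their DMSO partners. None was called by edgeR, DESeq2 or limma-voom (edgeR called 0.0786% of all transcripts, 0.0416% higher and 0.037% lower), 0 had an unadjusted p under 0.05, and the log2 fold changes lay between −0.31 and 0.36 with a median of −0.05. The 95% interval lay within a 2-fold change for 98 of the 100 and within a 1.5-fold change for 89. HSPA8 had 529, 488 and 534 TPM in LY411575, against 616, 585 and 566 TPM in DMSO, lower in 3 of 3 pairs (−0.19 ± 0.18, edgeR adjusted p = 1). The study had listed HSPA8 for this comparison, so its behaviour here is not independent of its naming.

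After 24 h in LY411575 STMN1 rose and 4 ribosomal protein transcripts fell. These 5 were the calls among the 100, against 3.4% of all transcripts (1.55% higher and 1.85% lower) and 11.1% of the next 900 ranks. Reads of STMN1 were shared with other transcripts in 26 libraries. STMN1 had 20143, 14398 and 16658 TPM in LY411575, against 10614, 10512 and 12416 TPM in DMSO, and the groups did not overlap (log2 fold change 0.69 ± 0.14 (SE), edgeR adjusted p = 0.022). RPS20 had 541, 664 and 530 TPM in LY411575, against 1020, 1035 and 914 TPM in DMSO (−0.71 ± 0.14, edgeR adjusted p = 0.020). RPL14 had 1232, 1523 and 1133 TPM in LY411575, against 2265, 2120 and 1939 TPM in DMSO (−0.64 ± 0.15, edgeR adjusted p = 0.044). In both, every inhibitor library was below every DMSO library.

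RPL23A had 971, 1186 and 928 TPM in LY411575, against 1775, 1681 and 1476 TPM in DMSO (−0.61 ± 0.13, edgeR adjusted p = 0.025). RPL31 had 770, 762 and 722 TPM in LY411575, against 1316, 1216 and 1070 TPM in DMSO (−0.60 ± 0.13, edgeR adjusted p = 0.032). RPL34, RPS23 and RPS25 had log2 fold changes of −0.57, −0.57 and −0.51 with adjusted p = 0.071, 0.061 and 0.060 by edgeR, and were lower in 3 of 3 pairs each. PGAM1 was higher in 3 of 3 pairs (0.52 ± 0.22, edgeR adjusted p = 0.25), and HSPA8 differed in sign between the pairs.

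**Figure D3:**
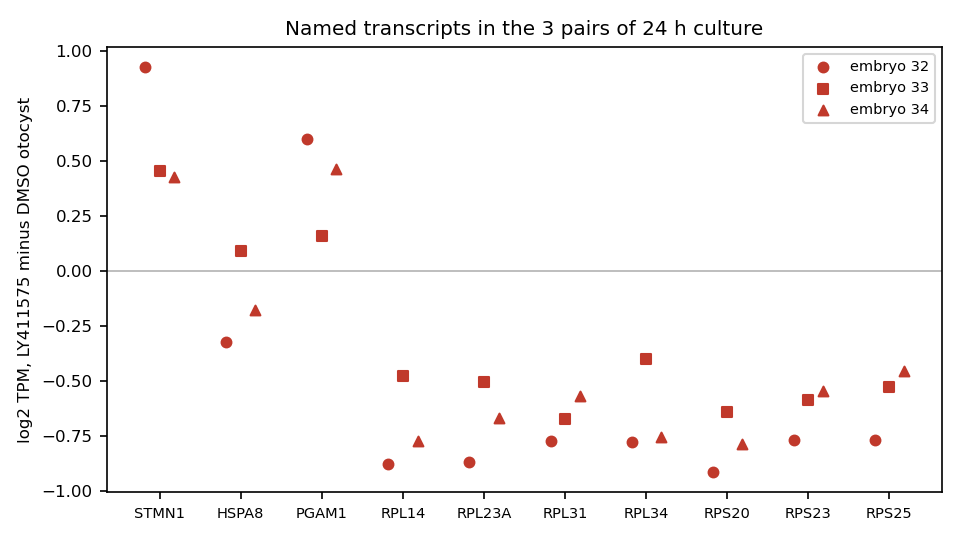
log2 ratio of TPM in the LY411575 otocyst over that in the DMSO otocyst of the same embryo after 24 h (vertical axis) for the 10 named transcripts; each point is 1 embryo (32, 33 or 34). The 7 ribosomal protein transcripts lie below 0 in all 3 embryos and STMN1 lies above 0 in all 3.

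The study's lists name 14 ribosomal protein transcripts in all, of which 7 are among the 100, and all 14 had been listed for the 24 h inhibitor cultures, so that their direction there is not independent. In that comparison 8 of the 14 were lower and 0 higher at the threshold, all 14 were negative, and the median log2 fold change was −0.61, against −0.03 for all transcripts. In no other treatment comparison was any of the 14 called. Their medians were −0.07 in LY411575 for 6 h, 0.09 with NICD1 after 6 h, 0.15 with NICD1 after 24 h and 0.27 with mRFP1 after 24 h. The 7 among the 100 made up 0.66% ± 0.11 of TPM in LY411575 for 24 h, against 1.05% ± 0.15 in DMSO for 24 h (SD, n = 3 each).

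Over all 100 transcripts, the named ones included, 46 had an unadjusted p under 0.05 after 24 h in LY411575. The median log2 fold change of the 100 was −0.18, against −0.03 for all transcripts and 0.11 for the next 900 ranks. The 50 transcripts under 700 bases had a median of −0.33 and the 50 longer ones of −0.07. The shorter ones include all ribosomal protein transcripts named among the 100. The Spearman correlation of length with log2 fold change was 0.32 over the 100, but −0.15 over all transcripts tested. The 4 called lower were under 700 bases and STMN1 has 972. Mean fragment lengths were longer in LY411575 in embryos 32 and 34 and shorter in embryo 33, as given above, and the part of length in the result was not tested. The number of calls varied with the embryos fitted: 0 were left without embryo 32, 13 were made without embryo 33, and 1, the rank 3 transcript, without embryo 34. In the same fits 106 of 22211, 1780 of 22198 and 340 of 22248 transcripts were called in all. The direction was the same in all 3 pairs for each of the 5 called transcripts, and without embryo 32 the log2 fold changes were −0.67 for RPS20, −0.58 for RPL31, −0.58 for RPL14, −0.54 for RPL23A and 0.50 for STMN1. Fitted on the 6 libraries of these cultures alone, with the embryo term, 0 of the 100 and 0 of all 18108 transcripts tested passed, with 35 of the 100 at an unadjusted p under 0.05. With embryo 33 as the only pair 1 was called, again the rank 3 transcript, an alternative chosen after the data had been seen. DESeq2 called 26 of the 100 and 2665 of all 21637 transcripts, and limma-voom called 10 of the 100 and 811 of all.

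The rank 3 transcript (822 bases, ENSGALT00000034639.4) had 43035, 33467 and 23695 TPM in LY411575 for 24 h, against 12228, 12807 and 28616 TPM in DMSO. It was higher in 2 of 3 pairs, with overlapping groups (log2 fold change 1.08, edgeR adjusted p = 0.072), and without embryo 34 it passed the test (1.68, edgeR adjusted p = 0.0022). An interaction term compared the fold changes of the 24 h and the 6 h inhibitor cultures: 0 of the 100 were called, with 0.111% of all transcripts and 0.444% of the next 900 ranks called and 13 of the 100 at an unadjusted p under 0.05. The difference between NICD1 and mRFP1 after 24 h gave 0 of 100 as well, with 0.00462% of all transcripts called and 0 of the 100 at an unadjusted p under 0.05.

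**Figure D4:**
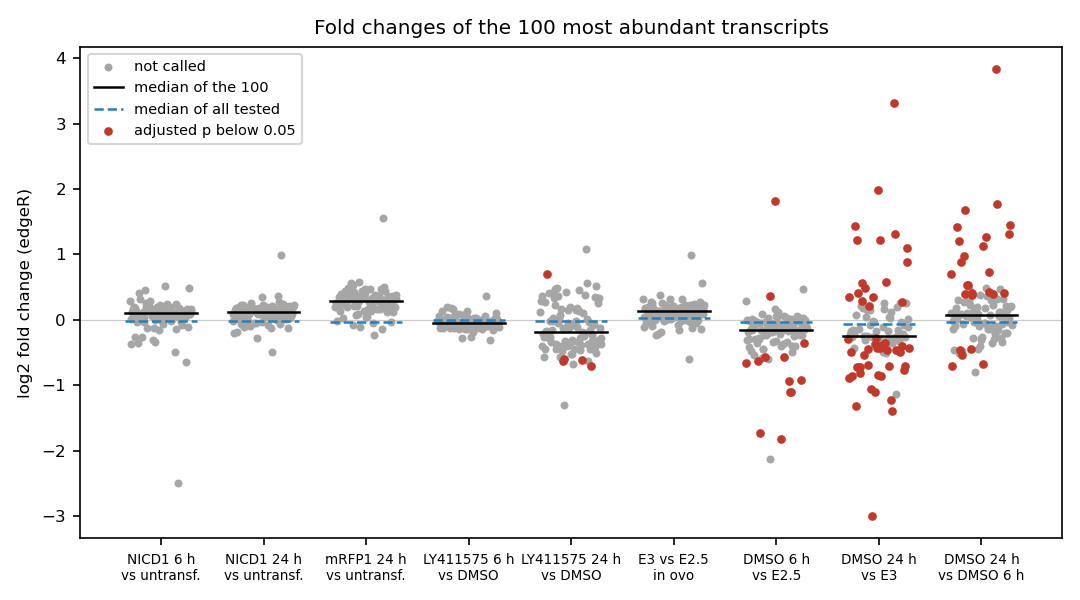
log2 fold changes (edgeR, vertical axis) of the 100 transcripts in the 9 comparisons; each point is 1 transcript, red where the adjusted p is below 0.05, black lines are medians of the 100 and dashed blue lines are medians of all transcripts tested. Calls are 0 in the 3 electroporation comparisons, in LY411575 for 6 h and in E3 against E2.5, and 51 in DMSO culture for 24 h against E3.

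Stage and culture were compared over the 15 left otocysts alone, in 1 fit of 20710 transcripts. These sets were separate experiments, so the set and the condition cannot be told apart. The cultured otocysts were explanted at E2.5 and then kept for 6 h or 24 h, past the stage of the in ovo otocysts they were set against. Stage and culture therefore cannot be told apart in these comparisons either. The in ovo otocysts were the untransfected ears of electroporated embryos. Between E3 and E2.5 in ovo 0 of the 100 were called (0% of all), with 9 at an unadjusted p under 0.05, 1 call by DESeq2 and 0 by limma-voom. Of all 20710 transcripts DESeq2 called 137 and limma-voom 0. The fold changes were positive for 79 of the 100 with a median log2 value of 0.13, against 0.02 for all transcripts and 0.06 for the next 900 ranks. The 95% interval lay within a 2-fold change for 97 of the 100. STMN1 had a median of 4199 TPM at E3 (3721 to 4773, n = 6) and 4286, 4502 and 4297 TPM at E2.5.

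More of the 100 were called between culture and in ovo. After 6 h in DMSO, against E2.5 in ovo, 2 of the 100 rose and 11 fell, with 10.1% of all transcripts (5.0% higher and 5.15% lower) and 17.4% of the next 900 ranks called. HSPA8 had the largest fall of those called: it had 616, 585 and 566 TPM in culture, against 2404, 2113 and 1299 TPM in ovo, without overlap (log2 fold change −1.83 ± 0.29, edgeR adjusted p = 0.0018). PGAM1 had 972, 1038 and 1045 TPM in culture, against 1753, 1915 and 1722 TPM in ovo (−0.92 ± 0.18, edgeR adjusted p = 0.0064). The rank 53 transcript (3054 bases, the longest of the 100, ENSGALT00000081765.3) had 699, 676 and 567 TPM in culture, against 2659, 2200 and 1077 TPM in ovo (−1.73 ± 0.29, edgeR adjusted p = 0.0029). All 3 libraries of culture lay below all 3 in ovo for each of these. Ranked over the 12 cultured libraries alone, 89 of the 100 were chosen again. HSPA8 (rank 62) was not, so its fall is not independent of the choice.

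The rank 5 transcript (126 bases, ENSGALT00000091021.1) rose: it had 9039, 9913 and 6998 TPM in DMSO for 6 h, against 2489, 1903 and 2539 TPM at E2.5 (1.82 ± 0.19, edgeR adjusted p = 8.43e-05). The rank 21 transcript (1553 bases) was the other that rose, by 0.36 on the log2 scale. The 11 that fell were all of 700 bases or more, and the rank 1 transcript was among them, at −0.66. No ribosomal protein transcript of the 14 was called. Leaving out single embryos gave 6 to 13 calls, the lowest without embryo 13, and 8 each without embryos 12, 1 and 5. In these fits 803 (without embryo 13) to 1643 (without embryo 15) of all transcripts were called.

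After 24 h in DMSO, against E3 in ovo, 17 of the 100 rose and 34 fell, with 32.1% of all transcripts (16.2% higher and 15.8% lower) and 45.8% of the next 900 ranks called. STMN1 had 10614, 10512 and 12416 TPM in culture, against a median of 4199 TPM in ovo (3721 to 4773, n = 6), without overlap (1.44 ± 0.08, edgeR adjusted p = 3.25e-07). The rank 3 transcript had 12228, 12807 and 28616 TPM in culture, against a median of 1708 TPM in ovo (1556 to 2183, n = 6), a log2 fold change of 3.32 ± 0.20. Alone it made up 1.79% of TPM in culture and 0.18% in ovo. The rank 5 transcript had 7704, 9587 and 12037 TPM in culture, against a median of 2335 TPM in ovo (2092 to 3324, n = 6), a log2 fold change of 1.99 ± 0.15.

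**Figure D5:**
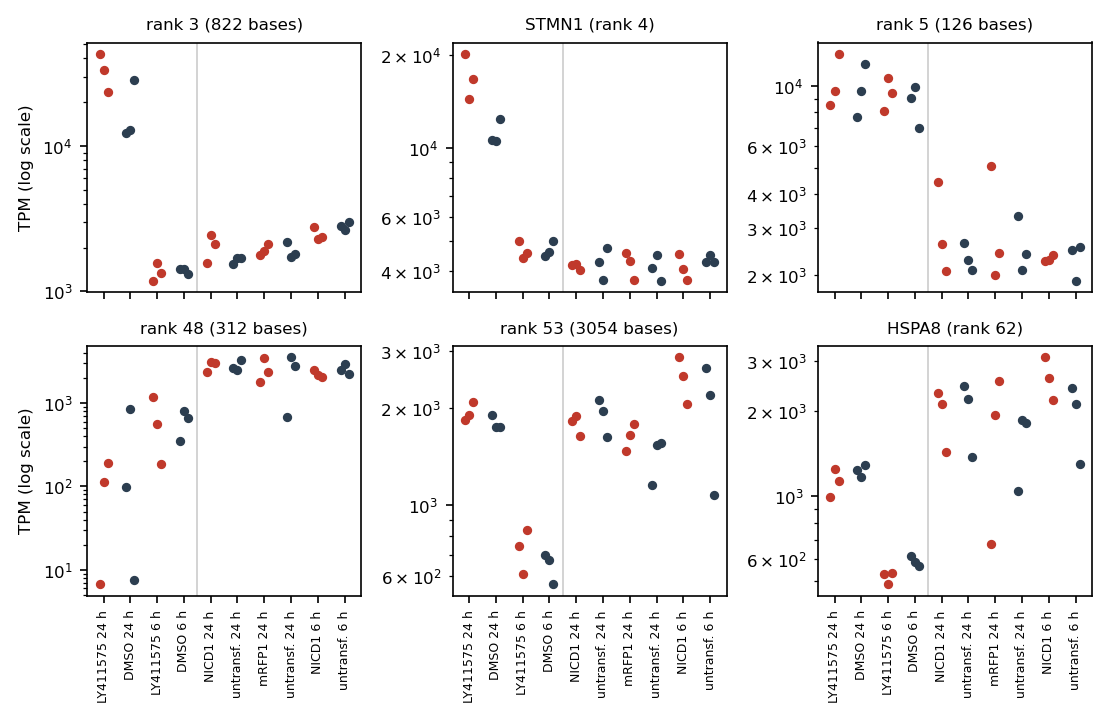
TPM (log scale) of 6 transcripts in every library, 3 per group, with red for the LY411575, NICD1 or mRFP1 otocysts and dark for their DMSO or untransfected partners; cultures are left of the vertical line and each untransfected group stands to the right of its own transfected group. Rank 3 and STMN1 are highest in the 24 h cultures, rank 5 is at 6998 TPM or more in all 12 cultures, and rank 53 and HSPA8 are lowest in the 6 h cultures.

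Other risers had no symbol: the transcripts of rank 49 (1609 bases, 1.30), rank 23 (1201 bases, 1.22), rank 97 (651 bases, 1.21), rank 36 (1785 bases, 1.10) and rank 9 (733 bases, 0.88), given as log2 fold changes. Rank 97 was not chosen when the 24 h cultures were left out of the ranking, so its rise is not independent of the choice. Among those that fell were rank 57 (1805 bases, −1.40), rank 50 (1395 bases, −1.31), rank 11 (1901 bases, −1.22), rank 13 (620 bases, −1.10) and rank 2 (1400 bases, −1.06), together with PGAM1 (−0.77, edgeR adjusted p = 0.0022) and RPS20 (−0.48, edgeR adjusted p = 0.0055). HSPA8 had 1236, 1168 and 1282 TPM in culture, against a median of 1831 TPM in ovo (1044 to 2439, n = 6), with overlapping groups (−0.49, edgeR adjusted p = 0.16). Of the 14 ribosomal protein transcripts 2 were lower and 0 higher, with a median of −0.08.

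The shares of the transcripts that rose and fell are given as a description, since the calls of this comparison define them. The 17 that rose held 7.82% ± 1.42 of TPM in DMSO for 24 h, against 3.30% ± 0.13 at E3, and the 34 that fell held 5.61% ± 0.50, against 9.17% ± 0.58 (SD, n = 3 and n = 6). Those not called held 8.39% ± 1.23, against 8.96% ± 0.38. The choice of the 100 had let a few risers in through the cultures. Ranked over the 18 libraries in ovo alone, 95 of the 100 were chosen again, and 14 of those rose and 34 fell. That ranking favours transcripts that are high in ovo, which is 1 side of this comparison. Ranked over the 6 libraries of 24 h culture alone, 78 were chosen again, and ranks 50, 57 and 87 (RPS20), which fell, were among those lost. Leaving out single embryos gave 39 to 50 calls, and without embryo 34 the number that fell was 22. In these fits 5295 (without embryo 34) to 6942 (without embryo 4) of all transcripts were called.

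Both culture comparisons have their own libraries on both sides. Of the 13 transcripts called at 6 h, 84.6% were called at 24 h too, and these 11 were 21.6% of the 51 called at 24 h. Over all transcripts the overlap was 63.9% of the 2102 called at 6 h and 20.2% of the 6644 called at 24 h. Among the 11, 7 were lower in both, 2 were higher in both and 2 changed in opposite directions.

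Between DMSO for 24 h and DMSO for 6 h, 21 of the 100 were higher and 5 lower, with 21.9% of all transcripts (11.7% higher and 10.2% lower) and 37.7% of the next 900 ranks called. The choice of the 100 took in the cultures here too. Of the 95 chosen again over the libraries in ovo alone, 18 were higher and 5 lower. The rank 3 transcript differed most, with 12228, 12807 and 28616 TPM at 24 h, against 1434, 1416 and 1320 TPM at 6 h (3.83 ± 0.26, edgeR adjusted p = 4.39e-06). HSPA8 was at 1236, 1168 and 1282 TPM at 24 h, against 616, 585 and 566 TPM at 6 h (1.26 ± 0.29, edgeR adjusted p = 0.0066). The rank 53 transcript was at 1909, 1752 and 1747 TPM at 24 h, against 699, 676 and 567 TPM at 6 h (1.69 ± 0.29). STMN1 was higher by 1.42 ± 0.09, and rank 5 had a log2 fold change of 0.38 (edgeR adjusted p = 0.15). The largest called fall was that of the rank 47 transcript (2362 bases), at −0.71. Without embryo 3 or without embryo 34, 1 of the 100 was lower. Over all 9 comparisons, 59 of the 100 were called at least once and 41 never, and 41.3% of all transcripts and 64.1% of the next 900 ranks were called at least once.

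Some members varied widely between libraries of the same group. The rank 48 transcript (312 bases, ENSGALT00000095438.1) had 98.3, 851 and 7.50 TPM in DMSO for 24 h, against a median of 2695 TPM at E3 (687 to 3551, n = 6) (log2 fold change −3.00 ± 0.94, edgeR adjusted p = 0.026), and the call was lost without embryo 32 (adjusted p = 0.095). Its reads were shared in 29 libraries. It was not chosen when the ranking used the 12 cultured libraries alone, so its fall is not independent of the choice. In LY411575 for 24 h it had 6.69, 114 and 191 TPM, so that the 2 otocysts of embryo 34 stood at 191 and 7.50 TPM. The rank 95 transcript (540 bases) was in the own top 100 of 9 libraries, and its reads were shared in 29. It had 25.7, 263 and 128 TPM with NICD1 after 6 h, against 389, 364 and 1294 TPM untransfected, without overlap (−2.49 ± 0.72, edgeR adjusted p = 1). It had 3073, 2450 and 8363 TPM with mRFP1, against 2148, 806 and 2242 TPM untransfected, also without overlap (1.56 ± 0.64, edgeR adjusted p = 0.47). Over the 30 libraries its mean was 1159 TPM and its median 656 TPM, and the first transcript outside the 100 had a mean of 1122 TPM. The mRFP1 otocysts thus helped to put it among the 100, and its rise there is not independent of the choice.

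RPS23, of the small ribosomal subunit, differed between embryos, in ovo and at 6 h of culture by more than between the 2 otocysts of an embryo. Its right and left otocysts had 1118 and 1002 TPM in embryo 4, 1033 and 852 TPM in embryo 19, and 920 and 1002 TPM in embryo 3. In the other embryos in ovo or at 6 h of culture both otocysts lay between 1557 and 1993 TPM. In embryo 34 the LY411575 otocyst had 474 TPM and the DMSO otocyst 692 TPM, against 1036 and 1143 TPM in the LY411575 otocysts and 1765 and 1717 TPM in the DMSO otocysts of embryos 32 and 33. The SD of log2(TPM + 1) within groups was 0.52 for RPS23, against 0.11 to 0.15 for the 6 other ribosomal protein transcripts among the 100. RPS23 was not alone in this, as ranks 34, 41, 54 and 18 had 0.53, 0.50, 0.49 and 0.48. Its reads were shared with other transcripts in 28 libraries, and the part of that sharing was not tested.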

How the data were processed

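RNA of single otocysts was amplified with SMART-Seq v4 and Nextera XT and sequenced as paired ends per the labels, a protocol that does not mark strand. The authors quantified the reads with kallisto on GRCg6a (versions not given in the sources used here) and deposited, per otocyst, estimated counts, which are neither normalised nor necessarily whole, and TPM, which the authors' software scaled for effective length and library size. Between 51.6% and 61.1% of the counts of a library were whole (tolerance 1e-06). Groups came from the labels; 4 inhibitor samples carry a compound name that ends in another digit and were treated as LY411575. Embryo numbers pair the otocysts by origin, and the deviations of the 2 otocysts from their group means correlated over 21637 transcripts with r between 0.02 and 0.30 in the 15 embryos.

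Levels are deposited TPM. Spread is the SD of log2(TPM + 1). For tests, estimated counts were rounded and fitted with edgeR 4.0.16 (TMM, filterByExpr with a minimum of 10, quasi-likelihood), with an embryo term over 30 libraries for treatments and without one over the 15 left libraries for stage and culture. P-values were adjusted over all transcripts. Alternatives were DESeq2 1.42.0, limma-voom 3.58.1, other size factors, no filter, no embryo term, fewer libraries and other rankings. Every transcript with a symbol was named, and identifiers are given for the 2 largest rises and 2 largest falls without one. The scripts were tested on simulated data, made without differences between embryos and with less spread than that fitted over all transcripts here. That test checks the scripts and not the precision of the results. The 100 transcripts and the lists were chosen with earlier results of these data known. No gene names were at hand for the other transcripts, and sequences and coordinates were not used here.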

Additional observations from a re-analysis of the deposited data

Results flagged for a closer look

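In the left otocyst of embryo 4 (untransfected, E3), the transcript ENSGALT00000095438.1 (rank 48) had 687 TPM and lay far from the 5 other left otocysts at E3, which had 2488 to 3551 TPM. In the same library the first 10 ranks held 6.13% of TPM, against 4.64% to 5.11% in the 5 others. Of 18 measures examined in this group of 6 otocysts, these 2 stood apart in this way, and chance gives about 1 in 20. The mRFP1 otocyst of embryo 4 differed in the same directions from those of embryos 23 and 24. Its first 10 ranks held 6.48%, against 4.41% and 4.77%, and rank 48 had 1790 TPM, against 3487 and 2371 TPM.

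The 14 transcripts given by name or identifier were compared between 24 h and 6 h of the same treatment and between NICD1 and mRFP1 after 24 h. In 2 cases every pair of one set went one way and every pair of the other the opposite way. With 3 pairs a set and 14 transcripts examined, such cases can arise by chance. Their share over all transcripts was not counted. PGAM1 had a mean log2 ratio of 0.41 in LY411575 over DMSO after 24 h and of −0.15 after 6 h. The rank 3 transcript ENSGALT00000034639.4 had a mean log2 ratio of 0.29 in NICD1 over untransfected otocysts after 24 h (only 0.02 in embryo 19) and of −0.19 after 6 h. The first difference was 0.67 ± 0.32 (log2, SE) in the interaction fit of edgeR, with an adjusted p of 0.47, and the second was not tested.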

How the results depend on the processing

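For LY411575 after 24 h, 5 of the 100 transcripts were called. DESeq2 called 26, limma-voom 10, the set alone with the embryo block 0, and embryo 33 as the only pair 1 (chosen after seeing the data). Over all 21637 transcripts DESeq2 called 2665 and limma-voom 811. Leaving out 1 embryo gave 0 to 13, with 106 to 1780 called over all transcripts. Without the embryo block 4 were called (2 higher and 2 lower, against 1 and 4 with it) and 308 of all transcripts, against 736 with it. In the other treatment comparisons 0 of the 100 were called with or without the block. DESeq2 called 1 for NICD1 after 6 h, 1 for NICD1 after 24 h, 14 for mRFP1 and 1 for E3 against E2.5, where edgeR called 0. Its totals over all transcripts were 125, 79 and 583 of 21637, and 137 of 20710 for E3 against E2.5. For DMSO culture for 6 h against E2.5, leaving out 1 embryo gave 6 to 13 calls. Ranking by CPM kept 42 of the 100, and the list of 100 it gave had a share of 15.3% and a median length of 1935.5 bases. The other totals of calls stayed within 1.5 times, but the number lower in DMSO for 24 h was 1 against DMSO for 6 h without embryo 3 or 34 (5 with all) and 22 against E3 without embryo 34 (34 with all). Without the 24 h cultures the median SD was 0.18 for the 100 (0.30 with them) and 0.22 for the next 900 ranks (0.30 with them). Of the fold changes of the 14 transcripts given by name or identifier, 0 reversed as a call, and the threshold was lost in 24 and gained in 16 combinations of transcript, comparison and alternative. The cause was not tested. With 3 libraries a group, differences that miss the threshold may be missed for lack of precision.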
